A study of Danio rerio with 48 samples.

Results

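The genes described here are 10 outputs of the circadian clock and enzymes of melatonin synthesis, measured in retinas of adult zebrafish under chronic low light (CLL). They are the repressors ciarta, bhlhe40 and bhlhe41, the PAR bZIP transcription factors dbpa, dbpb, tefa and tefb, and the enzymes aanat1, aanat2 and asmt. They were taken by name, with earlier results of these data known, so the shares of all genes beside their counts are a description. All 10 were present among the 15245 genes listed and among the 11395 tested. They were followed across 8 time-points, with 36 h of light set against 24 and 72 h.

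The circadian clock is a loop in which CLOCK and BMAL proteins switch on genes through E-box elements, and the Period and Cryptochrome products of that loop switch them off again. Ciart, known from the mouse, and the BHLHE40 and BHLHE41 proteins, called DEC1 and DEC2 in mammals, are further repressors of E-box genes, while DBP and TEF are activators that carry the rhythm to other genes through D-box elements. Melatonin, the hormone of darkness made in the pineal gland and by photoreceptors of the retina, is made from serotonin by arylalkylamine N-acetyltransferase (aanat genes) and then acetylserotonin O-methyltransferase (asmt genes), and the first of these enzymes typically increases at night.

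All fish were albino adults of 6 to 9 months, kept before the experiment in 14 h of light at about 250 lux and 10 h of dark, and then dark adapted for 24 h. The light groups were exposed to continuous light of about 5000 lux from 2 halogen lamps until harvest at 24, 36 or 72 h (hpl) or at 5, 10, 14 or 28 days (dpl) after light onset. The 0 h group was harvested from the dark without light exposure. Each group had 6 libraries of 3′ mRNA-seq, each from the dissected left retina of a single fish, in 2 library sets of 3, for 48 in all. The study ran 2 rounds of light treatment, and whether the library sets are these rounds is not given in the sources used here.

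Values are pseudocounts, which the authors adjusted to a common library size. They sum to between 1629375 and 1634450 per library, so the sequencing depth of a single library is unknown. The number of genes at 0 differed between libraries. At 36 hpl it was 2498, 3106 and 3266 in set 1 and 1243 in each library of set 2. Not every library followed its set, with 1422 in 0 h replicate 2 of set 1 and 2945 in 72 hpl replicate 6 of set 2. The effect of this on low values and on counts of libraries at 0 was not tested. Photoreceptor markers were present at every time-point, with 11 rod genes holding 1.23 to 5.83% and 13 cone genes 2.98 to 7.75% of the signal on average, whereas 13 lens genes held at most 0.00462% in any library. A log2 fold change below is on the scale of pseudocount plus 1, which understates the change of weakly expressed genes such as dbpb and asmt, and genes count as called where limma, adjusting over all tested genes, gave an adjusted p under 0.05. In a whole retina, fewer cells that express a gene and less RNA per cell cannot be told apart. The hour of the day of each harvest is not given in the sources used here. By elapsed time, 36 hpl is the only light time-point that is not a whole number of days after 0 h.

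At 36 hpl, aanat2 stood far above its level at 24 and 72 hpl, and the repressors ciarta, bhlhe40 and bhlhe41 stood below theirs. Together with tefa and tefb, 6 of the 10 genes were called against the mean of both neighbours, 1 higher and 5 lower. Of all genes tested, 8.87% were higher and 5.41% lower in that comparison, 14.3% in either direction. The libraries of 36 hpl lay wholly above those of 24 and 72 hpl for aanat2, as for 1.47% of all genes, and wholly below them for ciarta, bhlhe40 and tefa, as for 1.11% of all genes.

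**Figure D1:**
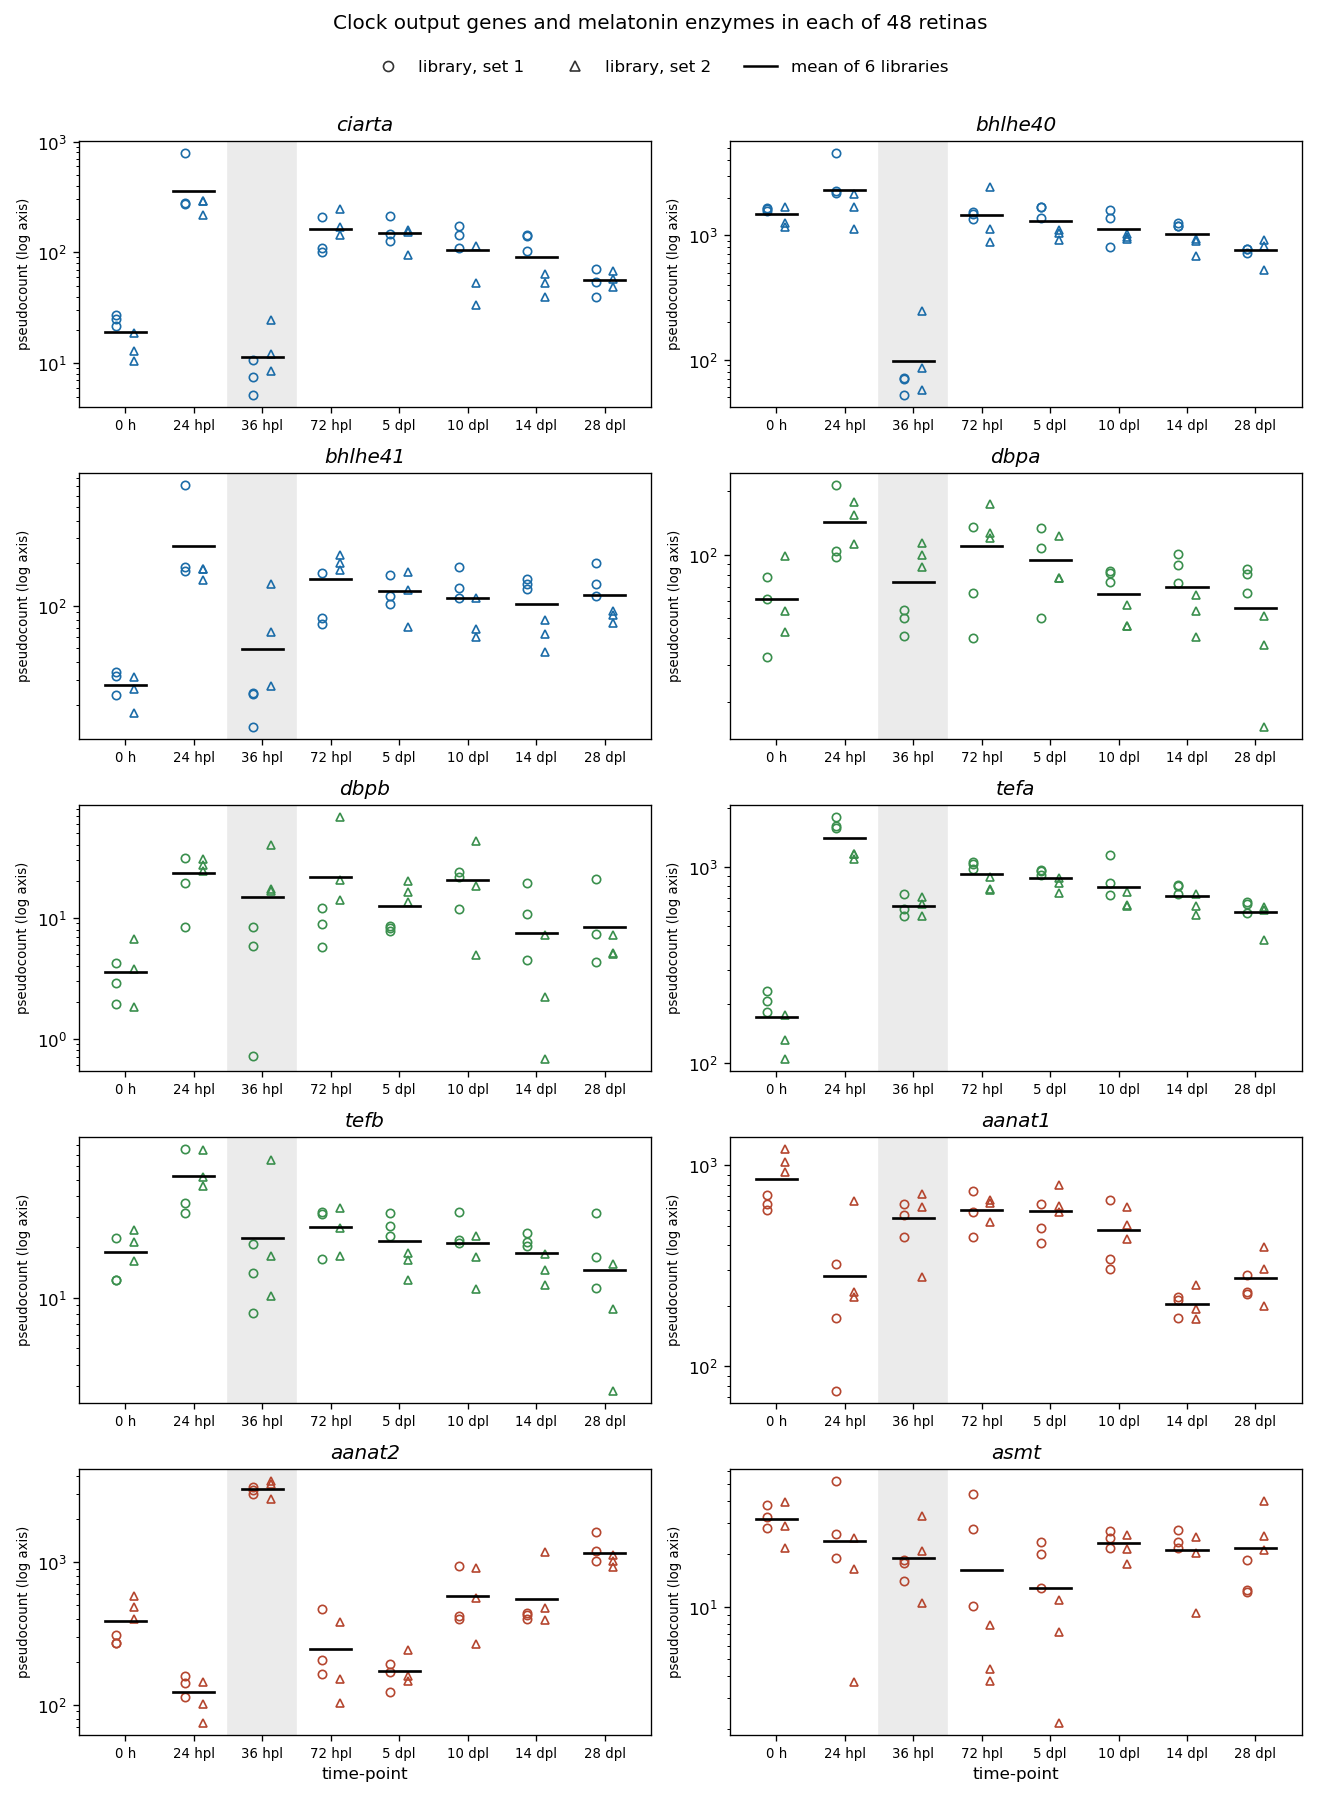
Pseudocount of each gene in each of 48 retinas (log axis) by time-point, with circles for library set 1, triangles for library set 2, a line for the mean of 6 libraries and grey shading at 36 hpl. The 36 hpl libraries of aanat2 lie between 2781 and 3707, above every other library of that gene, and those of bhlhe40 lie between 51.8 and 247, below every other.

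Among the repressors, ciarta had pseudocounts of 5.16 to 24.4 at 36 hpl (median 9.67), against 218 to 780 at 24 hpl (median 283) and 99.8 to 245 at 72 hpl (median 156). All 6 libraries of 36 hpl lay below all 12 of the other time-points. The mean at 24 hpl was 31.2 times, and that at 72 hpl 14.2 times, the mean at 36 hpl, a log2 fold change of -4.32 for 36 hpl against both (adjusted p = 2.9e-17, limma). In the dark at 0 h ciarta was also low, at 10.4 to 27.3 (median 20.1), and 36 hpl was not called against it (log2 fold change -0.79, adjusted p = 0.105). The 2 groups overlapped, with 3 of 6 libraries of 36 hpl below every 0 h library. Without 36 hpl replicate 4, the highest of its group, that comparison was called (log2 fold change -1.07, adjusted p = 0.0167). In library set 1 alone it was also called lower (-1.59, adjusted p = 0.0041, limma), and in set 2 alone it was not called (0.012, adjusted p = 0.993).

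For bhlhe40 the 36 hpl libraries read 51.8 to 247 (median 70.6), against 1110 to 4522 at 24 hpl (median 2146) and 878 to 2428 at 72 hpl (median 1412). The log2 fold change of 36 hpl against both was -4.36 (adjusted p = 2.8e-21, limma). Unlike ciarta, bhlhe40 was high in the dark, at 1152 to 1676 (median 1586), so that 36 hpl lay below every 0 h library as well, as for 2.33% of all genes (log2 fold change -4.14, adjusted p = 7.93e-18). Neither 24 nor 72 hpl was called against 0 h for this gene (log2 fold changes 0.52 and -0.08, adjusted p = 0.166 and 0.883). At 24 hpl 5 of its libraries lay above every 0 h library and 1 lay below them all. In library set 1 alone 24 hpl was called higher than 0 h (0.81, adjusted p = 0.0232, limma), and in set 2 alone it was not (0.24, adjusted p = 0.84).

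The third repressor, bhlhe41, had 13.9 to 143 at 36 hpl (median 25.8), against 153 to 711 at 24 hpl (median 181) and 74.1 to 228 at 72 hpl (median 176). The 143 of replicate 4 reached into the range of 72 hpl, and the other 5 libraries of 36 hpl lay below all 12 of the neighbours. The log2 fold change was -2.28 (adjusted p = 5.2e-07, limma). At 0 h bhlhe41 had 17.5 to 33.8 (median 28.6), a range that overlapped that of 36 hpl and lay below those of 24 and 72 hpl.

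Of the 4 PAR bZIP factors, tefa and tefb were lower at 36 hpl, by smaller amounts than the repressors. For tefa, pseudocounts were 561 to 730 at 36 hpl (median 630), against 1097 to 1796 at 24 hpl (median 1373) and 768 to 1063 at 72 hpl (median 937). The ranges did not touch, and the log2 fold change was -0.82 (adjusted p = 3.6e-08, limma). Its paralog tefb had 8.13 to 65.5 (median 15.8) at 36 hpl, against 31.8 to 75.8 (median 49.0) at 24 hpl and 16.9 to 34.1 (median 28.7) at 72 hpl. The 65.5 of replicate 4, the 20.7 of replicate 2 and the 17.6 of replicate 5 lay within the range of the neighbours, and the other 3 libraries lay below it. The gene was called lower (log2 fold change -0.98, adjusted p = 0.027). The tefb call was lost without 36 hpl replicate 1 (-0.75, adjusted p = 0.139), replicate 3 (-0.90, adjusted p = 0.0781) or replicate 6 (-0.85, adjusted p = 0.0868).

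Neither dbp gene was called against the mean of the neighbours. For dbpa, 41.2 to 113 (median 70.8) at 36 hpl stood beside 97.6 to 213 (median 133) at 24 hpl and 40.1 to 173 (median 123) at 72 hpl, with a log2 fold change of -0.74 (adjusted p = 0.077, limma). The dbpa value was called without 36 hpl replicate 4, without 72 hpl replicate 2 or without 28 dpl replicate 5 (adjusted p = 0.0385, 0.0244 and 0.0456) and after rescaling by median-of-ratios or upper quartile (adjusted p = 0.0307 and 0.0338). For dbpb, 0.713 to 39.8 (median 12.5) at 36 hpl stood beside 8.42 to 31.1 (median 25.7) at 24 hpl and 5.74 to 67.9 (median 13.2) at 72 hpl, and the log2 fold change was -0.87 (adjusted p = 0.24). These values are low and scattered, and 11 of the 12 neighbouring libraries lay within the range of 36 hpl.

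Of the melatonin enzymes, only aanat2, the form best known from the fish pineal gland, was called in this comparison. It had 2781 to 3707 at 36 hpl (median 3281), against 74.8 to 160 at 24 hpl (median 127) and 103 to 469 at 72 hpl (median 186). The mean of 3270 ± 344 (SD, n = 6) was 26.7 times that of 24 hpl and 13.3 times that of 72 hpl. The log2 fold change was 4.34 (adjusted p = 1.9e-19, limma), the largest increase of all 11395 genes in this comparison, while bhlhe40 and ciarta ranked 3 and 4 among the decreases. The dark-adapted retinas had 272 to 582 (median 352), so 36 hpl was above 0 h as well (log2 fold change 3.13, adjusted p = 3.38e-12).

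For aanat1, the form best known from the fish retina, the 36 hpl libraries lay within the range of their neighbours. It had 279 to 721 (median 593) at 36 hpl, against 75.5 to 663 (median 227) at 24 hpl and 440 to 743 (median 616) at 72 hpl. All 3 ranges overlapped, and the log2 fold change against both neighbours was 0.50 (adjusted p = 0.14, limma). It was called without 24 hpl replicate 5 (0.64, adjusted p = 0.0218) or without 36 hpl replicate 4 (0.72, adjusted p = 0.0211). For asmt, 10.5 to 32.9 (median 18.1) at 36 hpl stood beside 3.74 to 52.3 (median 21.9) at 24 hpl and 3.79 to 44.1 (median 8.97) at 72 hpl, with a log2 fold change of 0.29 (adjusted p = 0.67).

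Against each neighbour alone, 36 hpl had 2 of the genes higher and 6 lower than 24 hpl (13.8% and 6.52% of all genes), and 1 higher and 4 lower than 72 hpl (4.88% and 3.59%). The genes called against both were aanat2, ciarta, bhlhe40, bhlhe41 and tefa. Those called against 24 hpl alone were dbpa (log2 fold change -0.97, adjusted p = 0.0304, limma), tefb (-1.46, adjusted p = 0.0026) and aanat1 (1.18, adjusted p = 0.000547). The dbpa call was lost without 24 hpl replicate 1, 4 or 6 or 36 hpl replicate 1, 2 or 3 (adjusted p up to 0.0998). In library set 2 alone, tefa was not called against 72 hpl (-0.35, adjusted p = 0.469, limma). Nor were dbpa (-0.54, adjusted p = 0.473), tefb (-1.26, adjusted p = 0.221) and aanat1 (0.62, adjusted p = 0.377) called against 24 hpl in that set. Between the 2 neighbours, 1 gene was higher and 2 lower at 72 than at 24 hpl (5.84% and 1.89% of all genes). These were aanat1 (1.37, adjusted p = 0.000315), tefa (-0.60, adjusted p = 0.000891) and ciarta (-1.06, adjusted p = 0.0334), with 5 genes in place of 3 when 24 hpl replicate 5 was left out. The ciarta difference was not called without 24 hpl replicate 1, 4 or 6 or 72 hpl replicate 2 or 3 (adjusted p up to 0.147). Each pair of these 3 comparisons shares the libraries of 1 time-point.

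**Figure D2:**
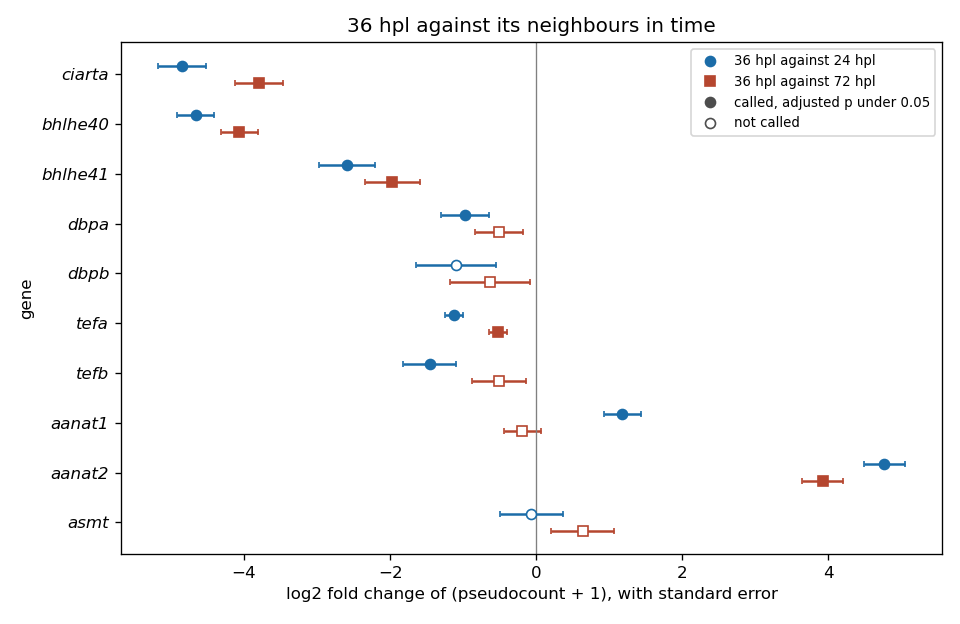
Log2 fold change (pseudocount plus 1) of 36 hpl against 24 hpl (circles) and against 72 hpl (squares) for each gene, with standard errors from limma and 6 libraries per time-point; filled symbols were called. For aanat2 the values are 4.77 and 3.92, and for bhlhe40 they are -4.66 and -4.06.

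Within each library set of 3 retinas per time-point, the change at 36 hpl against both neighbours was -4.74 in set 1 and -3.91 in set 2 for ciarta, -4.96 and -3.76 for bhlhe40, -3.03 and -1.53 for bhlhe41, and 4.09 and 4.59 for aanat2, all called in both. It was -1.05 and -0.60 for tefa, called in both, and -1.28 and -0.69 for tefb, called in set 1 (adjusted p = 0.0195, limma) and not in set 2 (adjusted p = 0.543). For asmt the direction differed, at -0.63 and 1.20, with neither called. A test of the difference between the sets called 0 of the 10 genes (0.00878% of all genes). Without adjustment p was under 0.05 in this test for bhlhe40, bhlhe41, tefa and asmt. The share of all genes at that threshold was not counted, so no reading of this number is given. Leaving out 24 hpl replicate 1, 36 hpl replicate 4 and 72 hpl replicate 4 together gave 6 calls again, with aanat2 at 4.46 and ciarta at -4.41. Each of these 3 libraries was the highest of its time-point for ciarta and bhlhe40, and they were chosen after their values were seen.

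Markers of several cell types were also called at 36 hpl against 24 and 72 hpl, where 8.87% of all genes were higher and 5.41% lower. Of 13 cone genes 8 were lower and 4 higher than at 24 and 72 hpl, and their summed share of the signal was 2.40 to 3.80% at 36 hpl, against 3.78 to 8.34% at 24 hpl and 2.05 to 6.88% at 72 hpl. The 11 rod genes held 2.80 to 5.80%, against 2.30 to 3.79% and 1.21 to 4.36%, with 5 genes called higher and 2 lower, and no gene of either list was at 0 in every library of a time-point. The 13 pigment epithelium genes held 0.744 to 1.32% at 36 hpl, against 0.307 to 1.03% at 24 hpl and 0.421 to 1.39% at 72 hpl, with 3 of 12 tested genes higher and 0 lower. Of 16 inner retinal neuron genes 6 were higher and 1 lower, with 0.431 to 0.585% of the signal at 36 hpl, against 0.416 to 0.577% at 24 hpl and 0.303 to 0.543% at 72 hpl. Of 12 tested Mueller glia genes 2 were higher and 3 lower, and the list held 0.224 to 0.391%, against 0.331 to 0.546% and 0.223 to 0.436%. The listed gene apoea was at 0 in every library of 36 hpl, as in those of 0 h and of 5, 10 and 28 dpl. No gene was called among 12 tested microglia and macrophage genes or among 4 tested erythrocyte genes, and 1 of 4 tested lens genes was higher. The part of these cells in the changes of the clock output genes was not tested. Pineal markers were near 0 throughout. All 6 together held 0.000155 to 0.000581% of the signal at 36 hpl, against 3.76e-05 to 0.000679% at 24 hpl and 0.000137 to 0.00127% at 72 hpl. Of these 6, agrp2 was at 0 in 38 of 48 libraries, and the photopigment gene parapinopsina in 37, including every one of 36 hpl. The genes exorh, the pineal opsin, and parietopsin had at most 12.1 and 17.7 pseudocounts in any library. Against 24 and 72 hpl, means at 36 hpl were higher for exorh (4.45 against 2.92), agrp2 (1.03 against 0.0996) and parapinopsinb (0.36 against 0.108). They were lower for parapinopsina, parietopsin (1.36 against 3.34) and bsx (0.218 against 0.253). Only exorh was tested, and it was not called in this comparison (log2 fold change 0.40).

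Relative to the dark-adapted retinas, 24 h of light came with higher levels of most of these transcription factor genes and with lower levels of both aanat genes. At 24 hpl, 6 of the 10 genes were higher and 2 lower than at 0 h (8.37% and 7.14% of all genes), with 5 wholly above the 0 h libraries and 1 wholly below them (3.98% and 2.92%). These groups differ in light as well as in elapsed time, and the 0 h libraries enter every comparison of this kind. The largest change among the 10 genes was that of ciarta, at 218 to 780 against 10.4 to 27.3 at 0 h. Its libraries did not overlap, and the log2 fold change was 4.06 (adjusted p = 5.14e-14, limma). Values for tefa were 1097 to 1796 at 24 hpl (median 1373), against 105 to 233 at 0 h (median 180), with no overlap and a log2 fold change of 3.04 (adjusted p = 7.11e-25, limma), and over all 8 time-points tefa had the second largest F statistic of the 11395 genes. For bhlhe41 they were 153 to 711 (median 181) at 24 hpl, against 17.5 to 33.8 at 0 h, also apart, with a log2 fold change of 3.01 (adjusted p = 3.79e-08). The mean of bhlhe41 rests in part on replicate 1, whose 711 stood beside 153 to 188 in the other 5 libraries.

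Among the other bZIP genes at 24 hpl, dbpb had 8.42 to 31.1 (median 25.7), against 1.82 to 6.69 at 0 h (median 3.35), a log2 fold change of 2.41 (adjusted p = 0.00119, limma). The ranges of tefb were 31.8 to 75.8 at 24 hpl and 12.6 to 25.2 at 0 h, with a log2 fold change of 1.44 (adjusted p = 0.00396). Both were apart, while dbpa overlapped in 1 library, at 97.6 to 213 against 32.8 to 98.6 (log2 fold change 1.24, adjusted p = 0.00683). The tefb difference was called in set 1 alone (1.47, adjusted p = 0.0241, limma) and not in set 2 alone (1.40, adjusted p = 0.154).

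The aanat genes went the other way at 24 hpl. For aanat2, 74.8 to 160 (median 127) at 24 hpl lay below 272 to 582 (median 352) at 0 h in every library, with a log2 fold change of -1.63 (adjusted p = 2.13e-05, limma). For aanat1, 75.5 to 663 (median 227) compared with 597 to 1203 (median 820), where the 663 of replicate 5 alone reached the 0 h range, and the log2 fold change was -1.84 (adjusted p = 3.3e-07). No difference was called for asmt, with 3.74 to 52.3 at 24 hpl and 21.7 to 39.7 at 0 h, nor for bhlhe40.

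**Figure D3:**
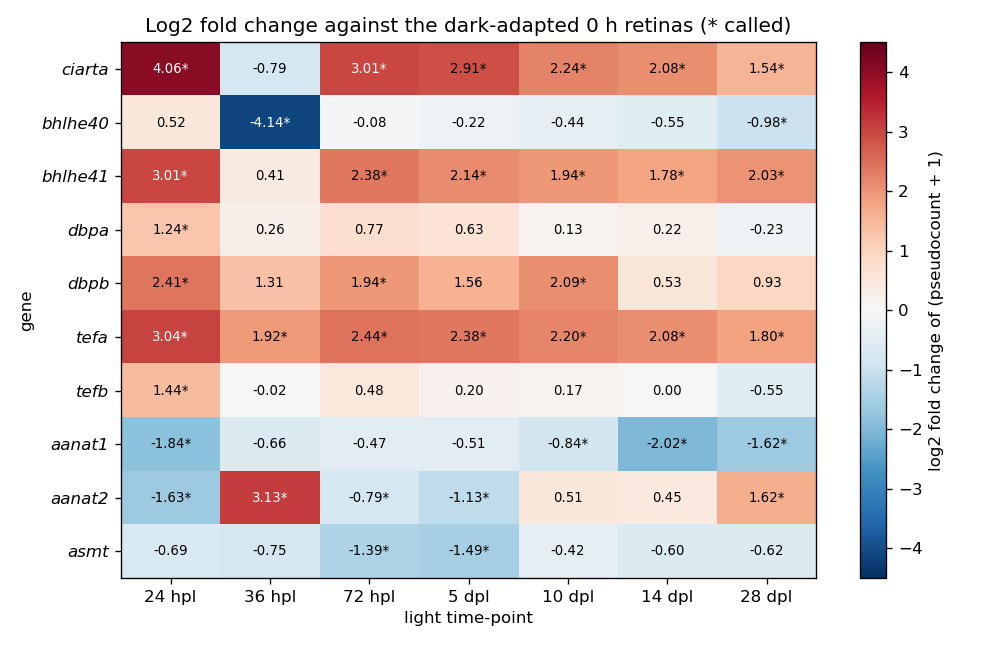
Log2 fold change (pseudocount plus 1) of each light time-point against the 0 h retinas for each gene, red for higher and blue for lower, with an asterisk where called by limma (6 libraries per time-point). In the column of 36 hpl, ciarta stands at -0.79, bhlhe40 at -4.14 and aanat2 at 3.13.

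The later time-points kept some of these differences from 0 h. At 36 hpl 2 genes were higher and 1 lower than at 0 h (9.66% and 3.8% of all genes), at 72 hpl 4 and 2 (9.2% and 5.7%), at 5 dpl 3 and 2 (6.49% and 2.09%), at 10 dpl 4 and 1 (6.41% and 1.51%), at 14 dpl 3 and 1 (5.59% and 2.31%) and at 28 dpl 4 and 2 (7.74% and 3.26%). The one gene higher at all 7 light time-points was tefa. Its log2 fold change was 2.44 at 72 hpl and 1.80 at 28 dpl (adjusted p = 7.22e-21 and 8.94e-16, limma), and every light library lay above every 0 h library. At 24, 36 and 72 hpl and 5, 10, 14 and 28 dpl the same held for 3.98, 4.71, 3.61, 4.46, 3.89, 3.67 and 4.19% of all genes. Both ciarta and bhlhe41 were higher at every light time-point except 36 hpl, again with all 6 libraries above 0 h each time. In set 1 alone ciarta was not called at 28 dpl against 0 h (1.08, adjusted p = 0.0718, limma). At 36 hpl in set 2 alone, bhlhe41 (1.36, adjusted p = 0.0459) and dbpb (2.33, adjusted p = 0.0397) were called higher than at 0 h. In set 1 alone neither was (bhlhe41 -0.53, adjusted p = 0.48, and dbpb 0.29, adjusted p = 0.867).

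Several of the remaining calls against 0 h were weak. For aanat2, 72 hpl with 103 to 469 (median 186) was called lower (log2 fold change -0.79, adjusted p = 0.0499, limma), and the call was lost in 36 of 48 fits that left out a library of any time-point (adjusted p up to 0.174, without 72 hpl replicate 5). It was firmer at 5 dpl, where 122 to 241 (median 163) lay below every 0 h library, as for 1.64% of all genes (-1.13, adjusted p = 0.00455), though not called in set 1 alone (-0.83, adjusted p = 0.15). For asmt, 72 hpl (-1.39, adjusted p = 0.0202) was lost without 0 h replicate 5 or 72 hpl replicate 4 or 5 (adjusted p up to 0.0629), and 5 dpl, with 2.17 to 23.3 (-1.49, adjusted p = 0.017), was lost without 0 h replicate 5 or 5 dpl replicate 5 (adjusted p up to 0.0888). The dbpb call at 72 hpl (1.94, adjusted p = 0.0112) was lost without 72 hpl replicate 4 (1.56, adjusted p = 0.0538). That at 10 dpl (2.09, adjusted p = 0.00955) was kept whichever library was left out, but not in set 2 alone (1.87, adjusted p = 0.147). In set 1 alone 72 hpl was not called for asmt (-0.48, adjusted p = 0.554, limma), dbpb (1.29, adjusted p = 0.236) or aanat2 (-0.17, adjusted p = 0.803). Nor was asmt called at 5 dpl in that set (-0.81, adjusted p = 0.38). All of these were called in set 2 alone.

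Among the light time-points at whole days, ciarta, bhlhe40, tefa, tefb and dbpa had their highest mean at 24 hpl and their lowest at 28 dpl. The means of ciarta were 356, 162, 148, 104, 90.3 and 56.3 at 24 and 72 hpl and 5, 10, 14 and 28 dpl, those of bhlhe40 were 2313, 1462, 1295, 1115, 1022 and 754, and those of tefa 1406, 919, 880, 788, 713 and 591. Those of tefb were 52.9, 26.3, 21.5, 21.1, 18.4 and 14.6. In each of these series every mean was below the one before it, although most neighbouring time-points overlapped and were not called. The series of dbpa was not steady, with 64.9 at 10 dpl and 70.4 at 14 dpl. Between the ends of the series, 6 of the 10 genes were lower and 1 higher at 28 dpl than at 24 hpl (8.36% and 12.5% of all genes). The 6 lower were ciarta (log2 fold change -2.52, adjusted p = 6.68e-08, limma), tefb (-1.99, adjusted p = 5.36e-05), bhlhe40 (-1.50, adjusted p = 1.14e-05), dbpb (-1.48, adjusted p = 0.0477), dbpa (-1.47, adjusted p = 0.000879) and tefa (-1.24, adjusted p = 1.67e-10), all but dbpb with no overlap between the time-points (2.75% of all genes lay wholly below). The dbpb call was lost in 26 of 48 fits that left out a library of any time-point (adjusted p up to 0.111, without 24 hpl replicate 1). In set 1 alone neither dbpa (-0.74, adjusted p = 0.205, limma) nor dbpb (-0.88, adjusted p = 0.381) was called. By 28 dpl bhlhe40, at 523 to 910 (median 772), lay below every 0 h library, as for 1.54% of all genes (log2 fold change -0.98, adjusted p = 0.00593). In set 2 alone that bhlhe40 difference was not called (-0.87, adjusted p = 0.137, limma).

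The single gene that was higher at 28 dpl than at 24 hpl was aanat2. It had 929 to 1625 at 28 dpl (median 1080), against 74.8 to 160 at 24 hpl (median 127), a mean 9.44 times as high (log2 fold change 3.25, adjusted p = 5.93e-12, limma). All 6 libraries of 28 dpl lay above those of 24 hpl, as for 4.6% of all genes, and above those of 0 h, as for 4.19%. They also lay above the 72 hpl and 5 dpl libraries, for which the share of all genes was not counted. At 10 dpl, with 266 to 939 (median 489), and at 14 dpl, with 393 to 1180 (median 433), the gene was not called against 0 h (adjusted p = 0.328 and 0.37), and at 28 dpl it was higher (1.62, adjusted p = 3.45e-05). The 28 dpl level remained below that of 36 hpl, with the libraries apart, though the share of all genes apart in this way was not counted. Each set alone gave 2.15 (set 1, adjusted p = 8.92e-05) and 1.09 (set 2, adjusted p = 0.0925) for 28 dpl against 0 h.

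Over the same days aanat1 took another course. It had 305 to 670 (median 468) at 10 dpl, 173 to 253 (median 203) at 14 dpl and 199 to 391 (median 260) at 28 dpl, against 597 to 1203 at 0 h. The last 2 lay below every 0 h library (1.37% of all genes at 14 dpl), with log2 fold changes of -2.02 and -1.62 (adjusted p = 7.59e-08 and 6.69e-06, limma). The 10 dpl value (-0.84, adjusted p = 0.0312) was lost without the 0 h library of set 2 that has no replicate number, 0 h replicate 5 or 6, or 10 dpl replicate 1, 3, 4 or 6 (adjusted p up to 0.087). Neither set alone called aanat1 at 10 dpl (set 1 -0.65, adjusted p = 0.345, and set 2 -1.03, adjusted p = 0.11, limma). At 28 dpl aanat1 and aanat2 lay on opposite sides of their own 0 h levels. The 11 rod genes held 1.23% of the signal on average at 14 dpl and 1.51% at 28 dpl, against 5.83% at 0 h. Of them, 9 and 8 were called lower than at 0 h (2.31% and 3.26% of all genes), and 0 and 1 higher (5.59% and 7.74%). The 13 cone genes held 7.75% and 6.62%, against 7.73% at 0 h, with 0 and 2 called lower and 2 and 2 higher. The part of these cells in the late changes was not tested.

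Across the 7 light time-points without 0 h, 8 of the 10 genes differed by limma's F test (26.5% of all genes). The exceptions were dbpb (adjusted p = 0.0574) and asmt (adjusted p = 0.207). By the size of F among light time-points bhlhe40 ranked 4 and aanat2 ranked 5 of 11395 genes.

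Other genes of the clock moved at 36 hpl as well, read here from lists of known pathway genes and named, up to a pair per list, by the smallest adjusted p. Where a few further genes were called, they are named too, after their values were seen. The median of all 11395 log2 fold changes for 36 hpl against 24 and 72 hpl was 0.17, and after median-of-ratios rescaling it was 0.033. In that comparison, to which all list counts below belong, 8.87% of all genes were higher and 5.41% lower. Of 6 core activators, 4 were higher and 0 lower (list median 1.06), among them clocka, with 219 to 399 at 36 hpl, against 68.8 to 136 at 24 hpl and 32.4 to 206 at 72 hpl (1.67, adjusted p = 4.04e-07, limma), and the bmal gene arntl1a (1.62, adjusted p = 6.53e-08). The other 2 were clockb and arntl2. Of 11 period and cryptochrome genes, 2 were higher and 6 lower (median -1.38). The repressor per3 had 1.62 to 14.3, against 55.0 to 131 and 40.6 to 113 (-3.78, adjusted p = 1.23e-15), whereas the cryptochrome cry1ba had 2872 to 5300, against 307 to 589 and 487 to 988 (2.90, adjusted p = 1.43e-19). The other gene that was higher was cry1bb, a further cryptochrome.

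The nuclear receptor loop had 2 genes higher and 3 lower of 10 (median -0.71), led by the repressor nr1d2b (-2.59, adjusted p = 7.81e-15, limma) and the activator rorab (-1.98, adjusted p = 7.81e-13). The third lower gene was roraa, and the higher ones were nr1d4a and nr1d4b. Of 7 tested genes of other clock repressors and bZIP factors, 3 were higher and 2 lower (median -0.82). The lower ones were hlfa, a PAR bZIP factor like the tef and dbp genes (-1.46, adjusted p = 2.36e-09), and nfil3-6, of the family that represses through the D-box (-1.12, adjusted p = 0.000105), while its relatives nfil3, nfil3-2 and nfil3-5 were higher. Without 36 hpl replicate 3 this list had 1 gene higher and 2 lower, and in library set 2 alone it had 0 higher and 1 lower, with nfil3-6 not called (-0.78, adjusted p = 0.281). The nuclear receptor loop had 1 gene higher and 2 lower in set 2 alone. Among 7 kinases and ubiquitin ligase subunits, 3 were higher and 1 lower (median 0.34), with csnk1da at -1.04 (adjusted p = 4.46e-07) and csnk1e at 0.46 (adjusted p = 0.00235), beside fbxl3a and fbxw11b, both higher. The csnk1e value was not called after median-of-ratios rescaling (0.31, adjusted p = 0.0601), which left 2 calls in that list, nor in set 2 alone (0.41, adjusted p = 0.292), which left 1.

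In the rest of the melatonin pathway, 12 of 21 listed genes passed the filter on low values, and 2 were higher and 2 lower at 36 hpl (median -0.15). The second methyltransferase gene, asmt2, had 78.6 to 142 at 36 hpl. Its neighbouring values were 38.1 to 61.4 at 24 hpl and 29.3 to 45.3 at 72 hpl. The 36 hpl libraries lay wholly above both, as for 1.47% of all genes (log2 fold change 1.37, adjusted p = 1.75e-06, limma). How reads that map to more than 1 of asmt, asmt2 and asmtl were treated is not stated in the sources used here. The pteridine enzyme gene gch2 was lower (-2.27, adjusted p = 4.67e-07). The remaining pair was tph1a, a tryptophan hydroxylase at the head of serotonin synthesis, with means of 198 at 36 hpl and 35.2 at its neighbours (2.75, adjusted p = 2.07e-06), and mao, which breaks down serotonin (-0.69, adjusted p = 0.0108). Of 6 photoreceptor transcription factors 4 were higher and 0 lower (median 0.56), including crx, which acts on photoreceptor genes (0.59, adjusted p = 3.47e-05), and neurod1 (1.03, adjusted p = 4.11e-05), with otx2 and otx5. After median-of-ratios rescaling, and in each library set alone, 2 of them were called, and neurod1 was not called in set 2 (0.77, adjusted p = 0.153).

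**Figure D4:**
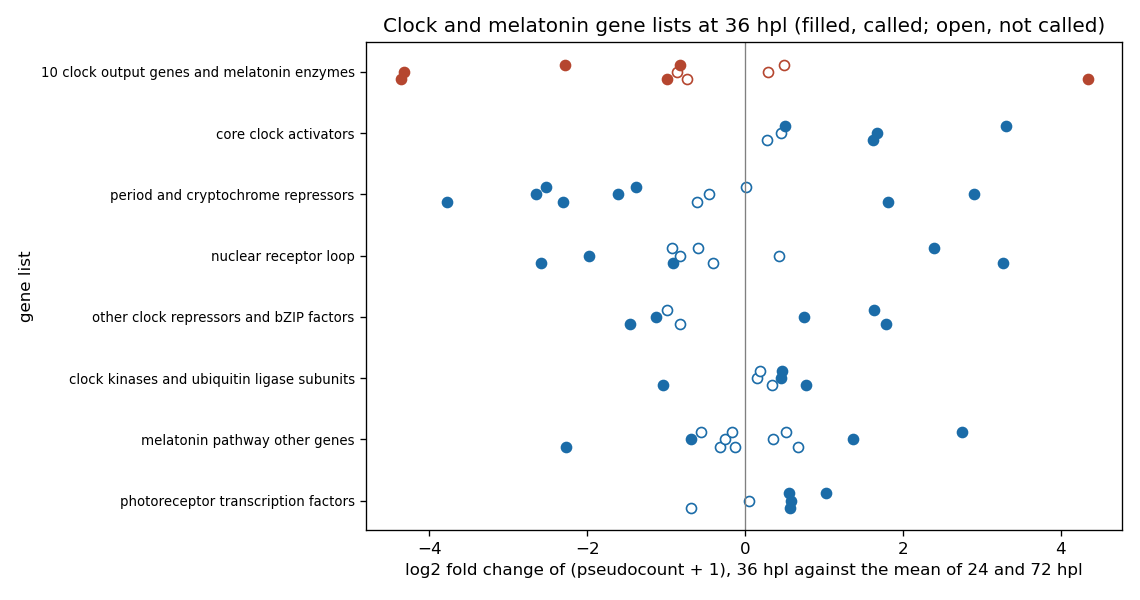
Log2 fold change (pseudocount plus 1) at 36 hpl against the mean of 24 and 72 hpl for the 10 genes (red) and for the tested genes of 7 pathway lists (blue), 1 point per gene, filled where called by limma. The highest point of the top row is aanat2 at 4.34, and the lowest is bhlhe40 at -4.36.

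The genes whose pattern over the 48 libraries was most like that of the leading gene of each role were found by Pearson correlation of log2 values after removal of library set means, given as a description since all points share the same libraries and time-points. For bhlhe40 these were fam107b (r = 0.95), ncaldb (0.93), a neuronal calcium sensor gene, and htra1b (0.91), a secreted serine protease gene. Means of fam107b were 93.7 at 36 hpl, against 1178 at 24 hpl and 635 at 72 hpl. For tefa they were ddb2, which encodes a DNA damage-binding subunit, hmox2a, a heme oxygenase gene, and the light-induced period gene per2 (r = 0.93 each). For aanat2 they were cry1ba (0.93), fus (0.90), an RNA-binding protein gene, and hn1b (0.89). Among the 10 genes themselves r was highest between ciarta and bhlhe41 (0.87) and lowest between bhlhe40 and aanat2 (-0.82), and it was 0.04 between aanat1 and aanat2.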

How the data were processed

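The deposited values are edgeR pseudocounts by the authors, a normalized, linear signal that is no longer a count. According to the paper the authors aligned the 3′ reads to zebrafish build dR10 and tabulated them per gene, and the submitters' processing notes name STAR, HTSeq and edgeR. Versions, annotation and strand setting are not given in the sources used here. Total RNA input was 150 to 230 ng per the labels, which differs from the amount stated in the paper. Groups and replicate numbers came from the labels, but 2 of the 0 h libraries had no number (library A of set 1 and of set 2), and their set came from a column suffix that the labels attach to the opposite set.

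The 11395 genes reaching a value of 5 in 6 or more libraries entered limma 3.58.1 in R 4.3.3 on log2(value + 1), with terms for time-point and library set, 39 residual degrees of freedom, eBayes with trend, and Benjamini-Hochberg adjustment over these genes in each comparison. In place of counting error, precision is the spread between retinas (median standard error 0.281 for 36 hpl against 24 and 72 hpl). Among the genes not tested are 12 whose symbols had become dates (0.128% of the signal). The genes described and the pathway and marker lists were chosen with earlier results of these data known. All 10 genes are named, and of each pathway list up to 2 with the smallest adjusted p, apart from those said to be chosen later. The fit was also run on simulated data, but the outcome is not reported here, so nothing is concluded from it. Alternatives were a pseudocount of 0.5 or 5, other filters and thresholds, 2 rescalings, other model terms and eBayes settings, single library sets, and leaving out 1 library at a time. Deposited tables of group means and of comparisons made by the authors, which hold log2 fold changes, CPM averages, test statistics and p-values, were not used, and the acute light libraries are not analysed here. No sequences were used here.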

Additional observations from a re-analysis of the deposited data

Results flagged for a closer look

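Each of the 10 genes was examined at each of 8 time-points for a library whose gap to the nearest of the other 5 took up more of the range, on the log2 scale, than Dixon's critical value allows. In 8 of 80 groups a library stood apart in this way, and chance alone gives about 1 in 20, or 4. At 24 hpl replicate 1 was far above the others for ciarta (780, next 293) and bhlhe41 (711, next 188), and replicate 2 was low for dbpb (8.42, next 19.5). At 36 hpl replicate 4 was high for bhlhe40 (247, next 85.1). At 14 dpl replicate 6 was high for aanat2 (1180, next 479) and replicate 5 low for asmt (9.18, next 20.3), and at 28 dpl replicate 1 was high for dbpb (21, next 7.41) and replicate 5 low for tefa (427, next 580). The cause was not tested.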

How the results depend on the processing

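The 85 single-gene values examined were those called, all of 36 hpl against both neighbours, and all of ciarta, bhlhe40, aanat1 and aanat2. Most other uncalled values were thus left out. In most fits without 1 library, that library was from neither side of the comparison. The 48 such fits gave 4080 values in all, and the values of 1 fit share its libraries. Of these values, 3969 kept the direction and the side of the threshold, 89 lost a call, 19 gained one and 3 changed sign. Of 1105 values under other settings, 1048 were kept, 42 lost a call, 11 gained one and 4 changed sign. The 4 sign changes were of uncalled values: asmt at 36 hpl against 24 and 72 hpl (-0.63 in set 1 alone), ciarta at 36 hpl against 0 h (0.012 in set 2 alone), and aanat1 at 28 dpl against 24 hpl (-0.18 in set 2 alone, -0.068 without the 3 libraries left out together). Those from leaving out 1 library were aanat1 at 28 dpl against 24 hpl (-0.075 to 0.50), aanat1 at 36 against 72 hpl (-0.28 to 0.032) and bhlhe40 at 72 hpl against 0 h (-0.27 to 0.034).

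The counts called among the 10 genes moved by more than 1.5 times only within single sets, apart from 72 against 24 hpl without 24 hpl replicate 5. With set 1 alone they were 3 at 72 hpl against 0 h, 3 at 5 dpl against 0 h and 5 at 72 against 24 hpl, and with set 2 alone 5 at 36 hpl against 0 h, 3 at 10 dpl against 0 h, 5 at 36 against 24 hpl and 0 at 72 against 24 hpl. Of the pathway lists at 36 hpl, kinases and photoreceptor factors, with 4 calls each, had 2 each after median-of-ratios rescaling and 1 each at a fold of at least 2, and the other repressors and bZIP factors had 3 in place of 5 without 36 hpl replicate 3. In set 1 alone that last list had 3 and the photoreceptor factors 2, and in set 2 alone the 2 lists had 1 and 2, the kinases 1 and the nuclear receptor loop 3 in place of 5. The cause was not tested, though each set has 3 libraries per time-point in place of 6. Without 1 library the counts were 5 to 8 for 36 hpl against both neighbours, 7 to 8 and 5 for 36 against 24 and 72 hpl, 2 to 5 for 72 against 24 hpl and 6 to 8 for 28 dpl against 24 hpl. Against 0 h they were 8 at 24 hpl, 3 to 4 for 36 hpl, 4 to 7 for 72 hpl, 4 to 6 for 5 dpl, 4 to 5 for 10 dpl, 4 for 14 dpl and 6 for 28 dpl. Between any light time-points they were 8 to 9.

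For same-numbered libraries of different time-points, deviations from the means of time-point and set had a median r of -0.002 (154 pairs, -0.211 to 0.265). For other numbers of the same set the median was 0.001 (308 pairs, -0.248 to 0.219). A link within single pairs was not tested. With a replicate block in place of library set, over the 46 numbered libraries, 6 genes were called at 36 hpl against both neighbours, 8 at 24 hpl against 0 h, 4 at 36 hpl and 4 at 72 hpl against 0 h, and 9 between light time-points. Single calls lost under the block were aanat1 at 10 dpl and aanat2 and asmt at 72 hpl, all against 0 h, and ciarta at 36 hpl against 0 h gained one. The values hold no depth, so low genes such as dbpb and asmt have an unknown counting error.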
